A study of Mus musculus with 67 samples.

Results

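Small intestinal crypts taken from mice 1 day after whole-animal irradiation were compared with crypts of normal, unirradiated mice by bulk RNA-seq. The comparison rests on 4 libraries, 2 labelled as day 1 after irradiation and 2 labelled as normal, of 67 bulk libraries in the series, and the members were chosen by these labels alone. Mice were C57BL/6. The irradiated animals were females of 8 weeks that received a single dose of 12 Gy. The study's general protocol released crypts with EDTA from about 20 cm of proximal small intestine and passed them through a 70 µm strainer. For irradiated mice the study says only that crypts of the small intestine were isolated. For normal crypts the sources used here give ages of 6 to 12 weeks for crypt isolation in general, and they do not say whether the irradiated mice without drugs were given vehicle. Crypts from days 2, 3 and 5 after the same dose (2 libraries each) and day 1 crypts of irradiated mice that were given valproic acid (VPA, a histone deacetylase inhibitor) and EPZ6438 (an EZH2 inhibitor) were used for comparison. The study describes its irradiated crypt libraries of day 3 as separate mice. No source used here says so for the day 1 and normal libraries or ties the numbers to animals. The p-values rest on the spread between libraries of the same group, pooled over all 18 crypt libraries in 9 groups. That spread may be partly technical.

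The crypt is the proliferating compartment of the intestinal epithelium, where stem cells and their dividing progeny renew the enterocytes, goblet, enteroendocrine and tuft cells, and Paneth cells sit at the base. Ionising radiation breaks DNA, and the break response stabilises the transcription factor p53, which switches on genes for cell cycle arrest (such as Cdkn1a), for apoptosis (such as Bax and Bbc3) and for its own restraint (such as Mdm2). Dividing crypt cells and resident lymphocytes are known to be radiosensitive, and surviving epithelial cells later pass through a regenerative state with fetal-like genes.

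Values are TPM (transcript abundance scaled for gene length and library total) after removal of genes encoded by mitochondrial DNA. Those genes took 31.8% and 29.7% of the listed TPM in the irradiated libraries against 18.1% and 12.7% in the normal ones, so they were left out and each library was rescaled. The table keeps no read numbers, so the depth is unknown and no counting error can be given. Replicates correlated at 0.964 for normal and 0.959 for irradiated crypts on the log2 scale, and libraries of different groups at 0.925 to 0.945. The irradiated libraries differed from each other by transcript length. Among the 25% of genes with the longest transcripts, irradiated replicate 1 lay at 0.25 and replicate 2 at -0.45 relative to the mean of all crypt libraries (median, log2), whereas among the 25% with the shortest they lay at 0.07 and -0.05. The part of this difference in single results was not tested, and counts with each library's length trend removed are given where they moved by over 1.5 times. Epithelial markers were present throughout, with Epcam at 1073 and 983 TPM in normal and 983 and 677 TPM in irradiated crypts.

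Of 11418 genes tested, 217 were higher (1.9%) and 224 lower (1.96%) 1 day after irradiation at a Benjamini-Hochberg adjusted p under 0.05 in limma and a change of at least 2-fold. The libraries of the 2 groups did not overlap for any of these 441 genes, whereas among all genes tested 16% lay higher and 24.6% lower without overlap. Over all genes 7125 had a log2 fold change under 0 and the median was -0.14, and it was 0.00 after quantile normalization, where 317 genes were higher and 209 lower. The split between the directions followed the scaling, since 312 were higher and 208 lower with scaling to the 75th percentile, 364 and 194 with the length trend removed, and 153 and 661 with mitochondrial genes kept. The number of lower genes also rested on single libraries, at 1100 without irradiated replicate 1 and 108 without irradiated replicate 2. With any 1 of the 4 libraries left out in turn, 89 higher and 65 lower genes kept their call. Lost calls are named beside each gene.

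**Figure D1:**
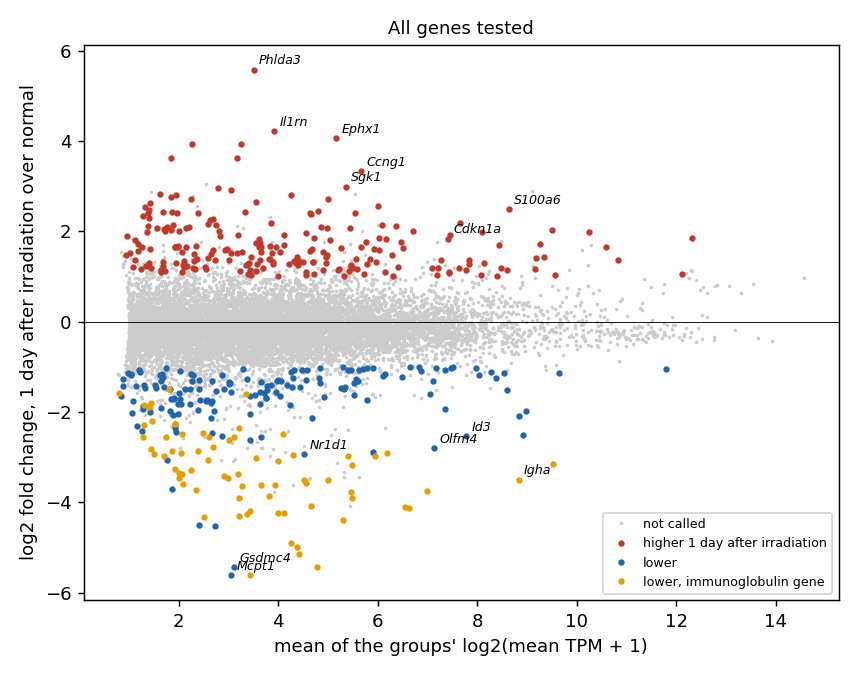
Log2 fold change of every gene tested (vertical, irradiated day 1 over normal, log2(TPM + 1) scale) against its mean level (horizontal, log2). Red points are the 217 genes called higher, blue and yellow points the 224 called lower, with yellow for immunoglobulin genes, which make up 71 of them.

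p53 target genes held the most rises of the lists. Of 39 p53 target genes tested, 21 rose, 1 fell and 17 did not pass, with a median log2 fold change of 1.31 against -0.14 for all genes tested. The list named its genes as known p53 targets, and a response of such genes to irradiation is textbook knowledge. Phlda3, a p53-induced inhibitor of Akt signalling, stood at 0.531 and 0.770 TPM in normal crypts and at 75.7 and 79.6 TPM after irradiation, the largest rise of any gene tested (log2 fold change 5.58, SE 0.20, adjusted p = 3.37e-09). It went from close to absent to a level near that of Cdkn1a in normal crypts.

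The sequences below carry the p53 response element before annotated starts of 5 list members and are shown because the factor's known motif can be read in them. The stretches of Cd80 and Rps27l lie inside the span of the gene, before a later annotated start. Of the 5, Cdkn1a, Ccng1, Bax and Cd80 rose and Rps27l did not pass. The element, a pair of 10-base copies joined directly or by 1 base, was searched on both strands at once (it reads the same on either) in the 250 bases before each RefSeq start, allowing up to 2 letters off outside the fixed C and G of each copy. Capitals mark the match, lower case the bases around it, and each run is written 5′ to 3′ along the gene (RefSeq, GRCm38.p6).
Cdkn1a, chr17:29090898-29090977, plus strand: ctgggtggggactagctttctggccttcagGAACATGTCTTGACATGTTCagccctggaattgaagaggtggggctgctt
Ccng1, chr11:40755432-40755511, minus strand: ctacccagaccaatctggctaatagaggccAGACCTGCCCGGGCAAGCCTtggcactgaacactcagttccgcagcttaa
Bax, chr7:45467049-45467129, minus strand: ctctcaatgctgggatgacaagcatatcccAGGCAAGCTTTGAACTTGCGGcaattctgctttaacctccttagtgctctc
Cd80, chr16:38458792-38458871, plus strand: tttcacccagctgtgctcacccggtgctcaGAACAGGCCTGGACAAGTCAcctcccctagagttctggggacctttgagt
Rps27l, chr9:66946266-66946345, plus strand: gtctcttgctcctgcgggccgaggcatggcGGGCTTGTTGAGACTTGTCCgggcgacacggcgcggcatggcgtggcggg
Windows were found for 29 of the 39 genes, and these 5 (17.2%) held a match, against 0.655% of 27025 genes with a window. The matches in Cdkn1a, Ccng1 and Rps27l were 1 letter off and those in Bax and Cd80 2 letters off. An exact match was in none of the 29 and in 3 of the 27025. A match is a description of the letters, not a measured binding site.

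Cdkn1a, which encodes the CDK inhibitor p21 and lies on chromosome 17 (29090979 to 29100722), was at 96.3 and 82.2 TPM in normal and at 313 and 327 TPM in irradiated crypts (log2 fold change 1.84, SE 0.16, adjusted p = 3.98e-05). Ccng1, cyclin G1, stood at 16.1 and 13.7 TPM against 151 and 168 TPM (3.34, SE 0.20, adjusted p = 1.1e-06). For both genes the groups were far apart and the replicates close. Mdm2, the ubiquitin ligase that degrades p53, was at 13.0 and 12.5 TPM in normal crypts and at 50.5 and 21.6 TPM after irradiation (1.31, adjusted p = 0.0338), and its call was lost without normal replicate 1 (adjusted p = 0.116), normal replicate 2 (0.122) or irradiated replicate 1 (0.111). Plk2 and Psrc1, which act in the cell division cycle, rose by 2.92 and 2.65 on the log2 scale, and Trp53 itself stood at 39.1 and 51.1 TPM against 47.7 and 33.1 TPM (-0.16, adjusted p = 0.699).

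Among genes of cell death, 3 BCL2 family members that promote apoptosis rose. Bax, which permeabilises mitochondria, was at 99.8 and 91.9 TPM in normal and 256 and 238 TPM in irradiated crypts (1.36, SE 0.15, adjusted p = 0.000139). Bbc3, which encodes the activator PUMA, went from 7.89 and 7.18 TPM to 23.1 and 14.5 TPM (1.18, adjusted p = 0.0288), and Bok from 4.82 and 13.4 TPM to 26.6 and 24.5 TPM (1.53, adjusted p = 0.0136). Those 3 were the calls among 11 BCL2 family genes tested, with none lower. The protective members Mcl1 (62.7 and 62.7 against 65.6 and 63.2 TPM) and Bcl2l1 (19.3 and 16.7 against 21.9 and 22.6 TPM) did not pass, and neither did Pmaip1, which encodes NOXA, at 14.4 and 11.8 against 25.0 and 7.93 TPM. The list held 17 genes, of which 11 passed the minimum level. The Bbc3 call was lost without either normal library (adjusted p = 0.0927 and 0.12) or irradiated replicate 1 (0.0863), and the Bok call without normal replicate 1 (0.0861) or irradiated replicate 2 (0.0608). The death receptors Eda2r (0 and 0.0676 against 4.67 and 5.39 TPM) and Tnfrsf10b (2.01 and 2.21 against 7.60 and 6.19 TPM) rose by 2.54 and 1.34.

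The remaining risers of the p53 list span several roles. Ddit4l, an inhibitor of mTOR signalling, rose from 0.200 and 0.215 TPM to 12.9 and 23.7 TPM (3.94, adjusted p = 1.24e-05). Trp53inp1 and Zmat3 rose by 2.09 and 2.08, Ptp4a3, a phosphatase, by 2.41, the non-coding RNA Pvt1 by 2.13, Dcxr by 1.85, Abhd4 by 1.57 and Cd80 by 1.98. Gdf15 (1.93), a secreted stress cytokine, Sesn2 (1.61) and Aen (1.33) rose too, but their calls were lost without normal replicate 1 (adjusted p = 0.105, 0.107 and 0.0833). With a library left out in turn, 16 to 21 of the list stayed higher, and 16 genes did so in each of the 4 cases. In a fit of the 4 libraries alone 8 passed.

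Some targets stayed flat or fell. Gadd45a, a stress gene that p53 can induce, fell from 215 and 215 TPM to 116 and 42.7 TPM (-1.59, adjusted p = 0.0292), a call lost without normal replicate 1 (adjusted p = 0.116), normal replicate 2 (0.108) or irradiated replicate 2 (0.23). Rps27l was already at 1018 and 661 TPM in normal crypts and stood at 1132 and 1424 TPM after irradiation (0.63, adjusted p = 0.106). Btg2, Sesn1 and Plk3, further targets, had log2 fold changes of -0.30, -0.70 and -1.21 and did not pass, though Plk3 passed as lower without irradiated replicate 1 (-2.20, adjusted p = 0.00769).

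**Figure D2:**
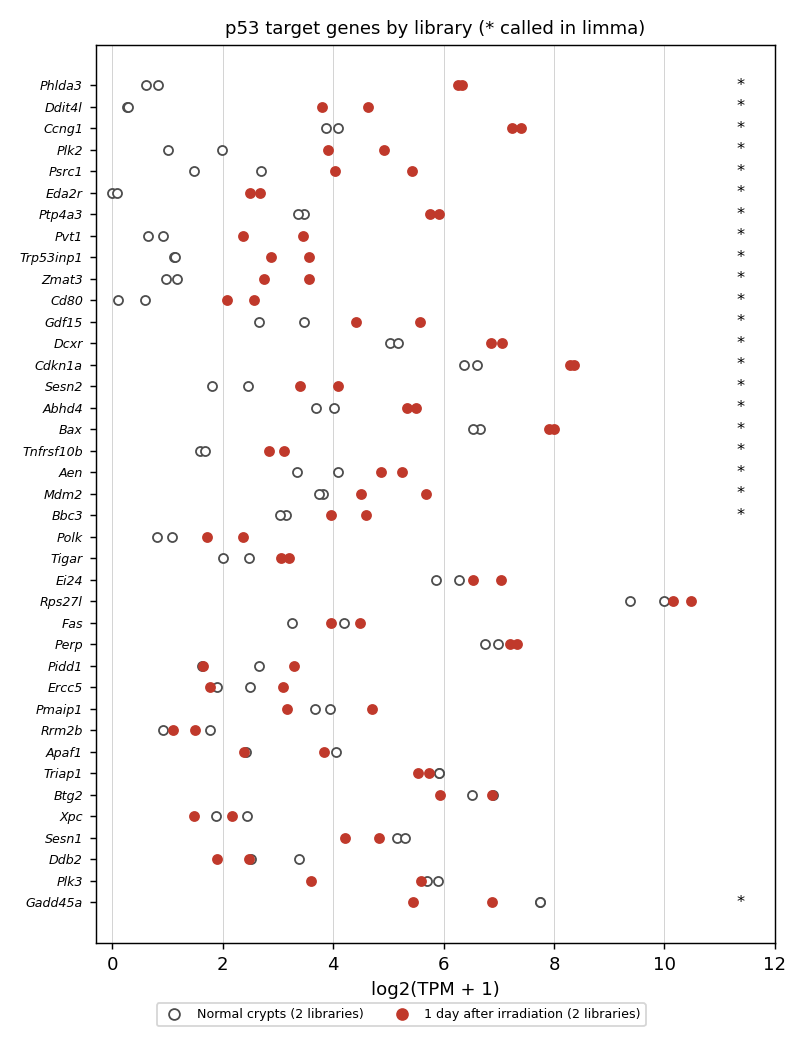
Level of the 39 p53 target genes tested in each library (horizontal, log2(TPM + 1)), ordered by fold change. Open circles are the 2 normal and red circles the 2 irradiated libraries, and stars mark the 22 genes called, 21 higher and Gadd45a lower.

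Beside p53 targets, the 12 largest rises by the naming rule held Il1rn, Ephx1, Crip2, Mbl2, Sgk1, Ltf, Anxa8 and Ces1d. Il1rn, the interleukin 1 receptor antagonist (chromosome 2, 24336860 to 24351491), went from 4.04 and 1.25 TPM to 65.7 and 58.4 TPM (4.22, SE 0.44, adjusted p = 0.000101). Ephx1, the microsomal epoxide hydrolase (chromosome 1, 180989556 to 181017569), went from 5.44 and 10.4 TPM to 144 and 140 TPM (4.06, SE 0.22, adjusted p = 4.74e-07). Both sets of libraries were far apart. Crip2, a LIM domain protein, rose by 3.94, Ltf, the iron-binding lactotransferrin, by 2.96, Anxa8, an annexin, by 2.83 and Ces1d, a carboxylesterase, by 2.82. Mbl2, a mannose-binding lectin, at 2.41 and 0.815 against 32.8 and 27.0 TPM, and Sgk1, a kinase that regulates ion transport, at 9.17 and 18.6 against 94.6 and 131 TPM, also passed (adjusted p = 0.0411 and 0.0259). The Mbl2 call was lost without any 1 of the libraries (adjusted p = 0.0883 to 0.181), and the Sgk1 call without normal replicate 1 (0.166), normal replicate 2 (0.0517) or irradiated replicate 2 (0.19).

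Detoxification genes that passed were all higher. Of 23 glutathione and NRF2 response genes tested, 4 rose and none fell (median 0.47), with 2 rises without normal replicate 2. Gsta4, a glutathione transferase that clears lipid peroxidation products, was at 93.7 and 92.5 TPM in normal and 467 and 395 TPM in irradiated crypts (2.19, SE 0.18, adjusted p = 1.62e-05), and Gsta3 at 16.8 and 6.89 against 65.8 and 91.2 TPM (2.73, adjusted p = 0.000274). Gsta1 (1.41) and Gstm6 (1.15) passed as well, with Gsta1 falling below 2-fold without normal replicate 2 (0.91) and Gstm6 losing its call without normal replicate 1 (adjusted p = 0.139), normal replicate 2 (0.111) or irradiated replicate 2 (0.19). Members of the Gsta and Ces1 families are near copies of each other, so the share of reads that each received is uncertain. Mgmt, which removes alkyl groups from guanine in DNA, rose from 0.748 and 0.949 TPM to 9.33 and 13.4 TPM (2.72, adjusted p = 4.44e-05). It was chosen after its values were seen and is not in the list of 28 DNA repair genes tested, none of which passed (limma, adjusted p under 0.05 with 2-fold, median -0.23, 3 at an unadjusted p under 0.05). Without irradiated replicate 1, 5 of the repair genes were lower (median -0.59), and without irradiated replicate 2 none was and the median was 0.25.

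The next genes, which act in growth factor signalling, the cell cycle or cell junctions, were single genes picked after their values were seen. The ERK feedback phosphatase Dusp6 went from 9.25 and 10.4 TPM to 72.7 and 42.9 TPM (2.39, adjusted p = 0.000458) and the ETS factor Etv4 from 0.293 and 2.41 TPM to 14.1 and 7.28 TPM (2.41, adjusted p = 0.00514). Among ligands of the EGF receptor, Ereg rose from 0.580 and 0.490 TPM to 4.55 and 2.94 TPM (1.61, adjusted p = 0.00743) and Btc from 0.839 and 1.62 TPM to 6.63 and 5.55 TPM (1.69, adjusted p = 0.00159). Areg was higher in both irradiated libraries but far apart between them, at 41.8 and 41.0 against 174 and 59.4 TPM, and did not pass (1.28, adjusted p = 0.0762), but passed without irradiated replicate 2 (0.00339) and after quantile normalization. The D-type cyclin gene Ccnd2 rose from 15.8 and 23.2 TPM to 110 and 103 TPM (2.41, adjusted p = 0.00031), and the tight junction gene Cldn2 from 28.6 and 46.7 TPM to 134 and 133 TPM (1.84, adjusted p = 0.00134).

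Of 17 revival and fetal-like genes tested, 3 rose and none fell, against 1.9% of all genes called higher. The list's median was 0.50, but 0.08 without irradiated replicate 1, 0.32 without normal replicate 1 and 1.04 without irradiated replicate 2, and 5 rose after quantile normalization or with the length trend removed. Anxa3, an annexin, rose from 2.01 and 2.37 TPM to 14.3 and 12.1 TPM (2.15, adjusted p = 0.00117). Ereg was the second, and Anxa1, at 2.53 and 1.01 against 6.29 and 5.25 TPM (1.34, adjusted p = 0.0231), the third, with a call lost without normal replicate 2 (0.166) or irradiated replicate 2 (0.0721). Clu, the marker of revival stem cells, was at 10.5 and 8.29 TPM in normal and at 20.2 and 5.35 TPM in irradiated crypts, so the groups overlapped (0.17, adjusted p = 0.849). Ly6a, which encodes the fetal-like surface marker Sca-1, stood at 24.6 and 11.5 against 41.5 and 37.7 TPM (1.18, adjusted p = 0.163), and Cxadr at 17.9 and 25.9 against 31.1 and 30.6 TPM (0.50, adjusted p = 0.283). Basp1 was under the minimum level, at 1.18 and 0.711 against 0.697 and 0.113 TPM.

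Some calcium-binding S100 genes and keratin 15 rose at the same time. S100a6 went from 151 and 182 TPM to 918 and 951 TPM (2.49, SE 0.21, adjusted p = 2.06e-05), S100a11 from 180 and 204 TPM to 711 and 547 TPM (1.70, adjusted p = 0.000383) and S100a14 from 12.9 and 15.9 TPM to 58.6 and 69.7 TPM (2.09, adjusted p = 0.000391). Of 10 S100 genes tested, 4 rose and none fell, in a group formed after the values were seen. Krt15 went from 1.68 and 2.10 TPM to 17.7 and 9.38 TPM (2.28, adjusted p = 0.00175). A regenerative signature that the study assembled from published injury models was counted as well. Of its 60 upregulated genes tested, 9 rose and 1 fell (median -0.20), and of its 53 downregulated genes 3 rose and 2 fell (median 0.24), with 6 rises with the length trend removed and 1 fall without normal replicate 2. The counts of the upregulated genes rested on single libraries, at 7 higher and 10 lower without irradiated replicate 1, 5 higher and none lower without irradiated replicate 2, 4 higher and 2 lower without normal replicate 2 and 7 higher and none lower without normal replicate 1. Their median turned to 0.12 without normal replicate 1 and 0.25 without irradiated replicate 2, and was -0.39 without either other library, while that of the downregulated genes was 0.08 without normal replicate 2, 0.05 without irradiated replicate 2 and -0.05 with mitochondrial genes kept. Its risers include Plk2, S100a11 and Egln3 (1.54), and its fall was of Socs3 (-1.55, adjusted p = 0.0405), a feedback inhibitor of cytokine signalling. The Egln3 call was lost without normal replicate 2 (adjusted p = 0.0799) or irradiated replicate 2 (0.0655), and the Socs3 call without normal replicate 1 (0.105), normal replicate 2 (0.165) or irradiated replicate 2 (0.289). Among the genes the signature expects to fall, Aldh1a1, a retinal dehydrogenase, rose by 1.92 and Gde1 by 1.76, while Car4, a carbonic anhydrase, fell by 1.94 and Hsd11b2 fell by 1.62, the last with no call without normal replicate 2 (adjusted p = 0.114).

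**Figure D3:**
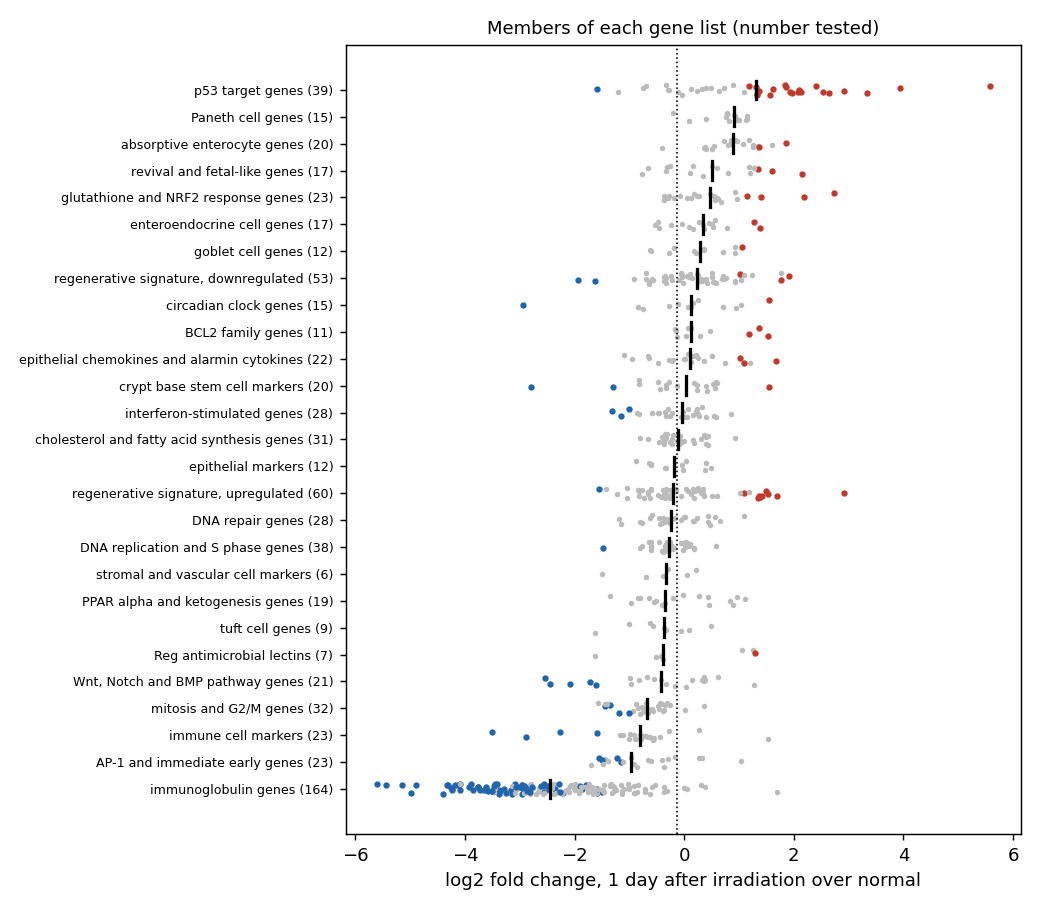
Log2 fold change (horizontal, irradiated day 1 over normal) of each tested member of the gene lists, with the number tested in parentheses. Red points were called higher, blue lower and grey points not called, the black bar is the list's median and the dotted line the median of all genes tested (-0.14). Among the lists drawn, the p53 targets lie highest (median 1.31) and the immunoglobulin genes lowest (median -2.44).

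The largest falls were of antibody, mast cell and gasdermin genes. Among the 12 largest falls by the naming rule, 8 were immunoglobulin genes, and the others were Mcpt1, Mcpt2, Gsdmc4 and Gsdmc2. Of 384 immunoglobulin genes in the table, 183 were at 0 in all 4 libraries and 164 could be tested. Of these 71 fell and none rose (median -2.44), in a group formed after the values were seen. Igha, the constant region of IgA, the antibody that gut plasma cells secrete, was at 1599 and 1325 TPM in normal crypts and at 200 and 82.0 TPM after irradiation (-3.50, SE 0.46, adjusted p = 0.000629). Igkc, the kappa light chain constant region, was at 2510 and 1855 against 289 and 204 TPM (-3.15, adjusted p = 0.00456), and its call was lost without irradiated replicate 2 (0.0608). Jchain, which joins IgA dimers, was at 209 and 119 against 23.0 and 18.5 TPM (-2.88, adjusted p = 0.000652), and Cd79a, part of the B cell receptor, at 7.34 and 7.43 against 0.926 and 0.564 TPM (-2.27, adjusted p = 6.88e-05).

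Variable segments differed widely between the 2 normal libraries. Igkv6-13 was at 161 and 21.6 TPM in the normal libraries and at 0.535 and 0 TPM in the irradiated ones, and Igkv5-39 at 264 and 13.2 against 0 and 3.24 TPM. Igkv9-124 (58.4 and 368 against 1.70 and 3.28 TPM) and Ighv1-18 (44.8 and 245 against 2.87 and 1.34 TPM) were high in the opposite normal library. Ighv2-9-1, Ighv14-4, Igkv13-84 and the lambda constant region Iglc1 fell by 4.98, 4.32, 4.30 and 4.39. Segments of a family are near copies, so how reads were shared between them is uncertain. The number of immunoglobulin genes called lower was 50 with the length trend removed (median -1.72), 38 without irradiated replicate 2 and between 53 and 85 without any other single library, 39 in a fit of the 4 libraries alone and 27 with a pseudocount of 0.1. The calls of Igkv6-13 (adjusted p = 0.05 without irradiated replicate 2), Igkv9-124 (0.205 without normal replicate 2, 0.0915 and 0.165 without irradiated replicates 1 and 2) and Igkv5-39 (0.165 without normal replicate 1, 0.0882 and 0.0544 without irradiated replicates 1 and 2) were lost in this way.

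Among immune cell markers, the calls were of antibody and B cell genes. Of 23 immune cell markers tested of 30 listed, 4 fell (Igha, Jchain, Cd79a and Ighm) and none rose, and 21 had a log2 fold change under 0 (median -0.80). Without irradiated replicate 1, 8 were lower (median -1.26), and the median was -0.46 without irradiated replicate 2 and -0.51 without normal replicate 1. Their summed level was 2820 and 1803 TPM in normal and 564 and 343 TPM in irradiated crypts, and none was at 0 in all 4 libraries. The T cell genes Cd3e (13.3 and 7.06 against 6.47 and 2.02 TPM) and Gzma (706 and 196 against 190 and 155 TPM) did not pass (adjusted p = 0.172 and 0.384). Outside the list, Coro1a, an actin regulator of leukocytes, fell by 2.13 and Mzb1, a plasma cell chaperone, fell by 1.75, with calls lost without normal replicate 1 (adjusted p = 0.11 and 0.174) or irradiated replicate 2 (0.0933 and 0.0803). The Ighm call was lost without normal replicate 1 (0.0861), normal replicate 2 (0.0815) or irradiated replicate 2 (0.163). The part of immune cells in other results was not tested. In bulk crypts, fewer cells of a type and less RNA per cell cannot be told apart. Stromal and vascular markers were low throughout, with 6 of 22 above the minimum level and none called.

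Mast cell proteases and gasdermin C genes were nearly lost. Mcpt1, a protease of mucosal mast cells (chromosome 14, 56017964 to 56020391), was at 46.4 and 68.6 TPM in normal crypts and at 0.385 and 0 TPM after irradiation (-5.61, SE 0.55, adjusted p = 6.88e-05), and Mcpt2 beside it (56021584 to 56044635) at 19.8 and 29.0 against 0.218 and 0 TPM (-4.50, adjusted p = 1.57e-06). Gsdmc4, a gasdermin of epithelial cells, was at 45.1 and 67.3 against 0.503 and 0.124 TPM (-5.43, SE 0.43, adjusted p = 1.43e-05). Its neighbours on chromosome 15, Gsdmc2 (24.4 and 37.6 against 0.741 and 0.0497 TPM) and Gsdmc3 (4.98 and 13.6 against 0.235 and 0 TPM), fell by 4.53 and 3.07. The 3 gasdermin genes lie between 63824328 and 63912319 and are near copies, so reads may be shared among them. Each kept its call without any 1 library. They stayed low on later days, when Gsdmc4 was at 2.38 and 2.99 TPM on day 2, 0.951 and 0.644 TPM on day 3 and 1.15 and 0.0858 TPM on day 5. Mcpt2 was at 2.65 and 4.93 TPM on day 2 and at 18.5 and 17.8 TPM on day 3, both higher than on day 1 (adjusted p = 0.00129 and 3.24e-06).

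**Figure D4:**
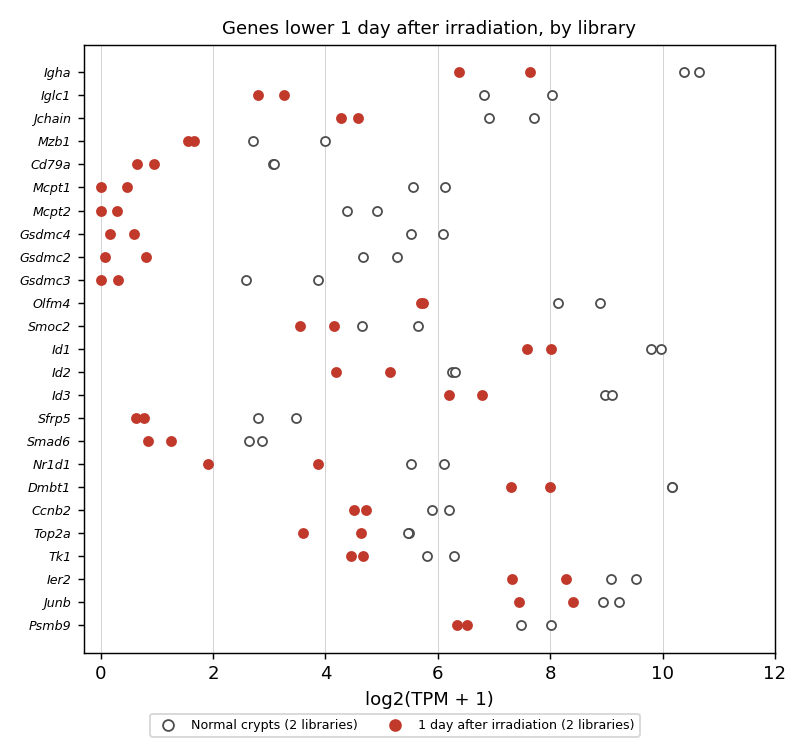
Level of 25 genes that fell, in each library (horizontal, log2(TPM + 1)). Open circles are the 2 normal and red circles the 2 irradiated libraries, which do not overlap for any gene shown. Mcpt1 and Gsdmc4 lie near 0 after irradiation.

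Stem cell markers did not move in 1 direction. Olfm4, a marker of crypt base columnar cells (chromosome 14, 80000302 to 80023141), fell from 280 and 475 TPM to 52.2 and 51.0 TPM (-2.80, SE 0.41, adjusted p = 0.00145). Of the 20 markers tested, Smoc2 fell too (24.1 and 49.2 against 16.8 and 10.6 TPM, -1.30, adjusted p = 0.0285) and Cd44, an adhesion receptor, rose (3.88 and 5.29 against 20.2 and 11.4 TPM, 1.55, adjusted p = 0.018), and the median was 0.03, between -0.40 without irradiated replicate 1 and 0.40 without normal replicate 2. Without normal replicate 1 or irradiated replicate 1 none rose and 3 fell, and 1 fell without normal replicate 2 or irradiated replicate 2. Lgr5, the defining marker, was near the minimum at 0.766 and 1.99 against 1.38 and 0.407 TPM (-0.33, adjusted p = 0.605), and Ascl2 at 6.07 and 16.6 against 8.32 and 7.38 TPM (-0.33, adjusted p = 0.615). For neither did the groups separate. The Smoc2 call was lost without normal replicate 2 (adjusted p = 0.199) or irradiated replicate 2 (0.197), and the Cd44 call without normal replicate 1 (0.119) or irradiated replicate 1 (0.0618). Hopx, a gene of slowly cycling crypt cells that enterocytes also express, rose from 80.7 and 97.6 TPM to 192 and 214 TPM (1.18, adjusted p = 0.000258). Dmbt1, a secreted scavenger glycoprotein, fell from 1148 and 1145 TPM to 253 and 157 TPM (-2.52, adjusted p = 0.000151).

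Of 21 Wnt, Notch and BMP pathway genes tested, 5 fell and none rose (median -0.43), and the 5 were Id1, Id2, Id3, Smad6 and Sfrp5. Without irradiated replicate 1, 9 were lower (median -0.85), and without irradiated replicate 2, 4 were lower and 1 higher (median 0.03). The median was -0.76 without normal replicate 1 and -0.01 without normal replicate 2. The Id genes encode inhibitors of basic helix-loop-helix factors, Smad6 an inhibitor of BMP signalling, and Sfrp5 a secreted Wnt antagonist. Id3 was at 504 and 546 TPM in normal and at 110 and 72.8 TPM in irradiated crypts (-2.54, SE 0.30, adjusted p = 0.000274), and Id1 at 882 and 1002 against 256 and 191 TPM (-2.08, adjusted p = 0.00036). Id2 stood at 75.3 and 78.4 against 34.4 and 17.3 TPM (-1.61, adjusted p = 0.0292), and its call was lost without normal replicate 1 (0.11), normal replicate 2 (0.115) or irradiated replicate 2 (0.223). Sfrp5 and Smad6 fell by 2.44 and 1.72. Id1 and Id3 remained below normal levels on day 5, at 145 and 129 TPM and at 91.2 and 99.9 TPM.

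Mitosis genes included 4 that fell. Of 32 mitosis and G2/M genes tested, 4 fell and none rose, while 30 had a log2 fold change under 0 (median -0.68, or -0.38 without irradiated replicate 2). Of 38 DNA replication and S phase genes, 1 fell (median -0.28), a share near that of all genes, and 4 fell without irradiated replicate 1 (median -0.55). The S phase median was -0.47 without normal replicate 1, -0.16 without normal replicate 2 and -0.04 without irradiated replicate 2. Ccnb2, cyclin B2, was at 58.8 and 72.8 TPM in normal and 21.8 and 25.3 TPM in irradiated crypts (-1.44, SE 0.23, adjusted p = 0.00264). Tk1, thymidine kinase, was at 55.1 and 77.2 against 24.6 and 20.9 TPM (-1.48, adjusted p = 0.00464), and Top2a, topoisomerase II alpha, at 43.9 and 43.2 against 23.9 and 11.1 TPM (-1.36, adjusted p = 0.016). Mki67, which encodes Ki-67, was at 5.97 and 9.32 against 5.17 and 0.638 TPM and did not pass (-1.42, adjusted p = 0.0985), with its irradiated libraries far apart. It passed without irradiated replicate 1 (-2.37, adjusted p = 0.00153) and after quantile normalization. Pcna, the replication clamp and also a p53 target, stood at 140 and 154 against 167 and 151 TPM (0.11, adjusted p = 0.738).

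The count of falling mitosis genes was 10 without irradiated replicate 1, 11 with mitochondrial genes kept, 1 without normal replicate 1 and 2 without normal replicate 2 or irradiated replicate 2. The Top2a call was lost without normal replicate 1 (adjusted p = 0.0826), normal replicate 2 (0.0705) or irradiated replicate 2 (0.14). Birc5, which fell by 1.20 and encodes survivin, lost its call without normal replicate 1 (adjusted p = 0.0819) or irradiated replicate 2 (0.0809), and Cenpa (140 and 140 against 60.1 and 80.2 TPM), a centromere histone, did so without any 1 library except irradiated replicate 2 (adjusted p = 0.0701 to 0.0967) and after quantile normalization (-0.89). Cdca3, a mitotic regulator outside the list, kept its call throughout, at 94.3 and 106 against 32.0 and 26.9 TPM (-1.73, adjusted p = 0.00145).

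Of 15 Paneth cell genes, 14 had a log2 fold change above 0 (median 0.91) and none passed (limma), against 1.9% of all genes called higher, and 9 of the 15 had an unadjusted p under 0.05. Lyz1, lysozyme, was at 2928 and 6495 TPM in normal and at 7114 and 7868 TPM in irradiated crypts (0.78, adjusted p = 0.177), and the normal libraries differed from each other by more than the irradiated ones. Without normal replicate 2 Lyz1 passed (1.35, adjusted p = 0.0218), as did 5 Paneth cell genes in all (median 1.40), while without normal replicate 1 none passed and the list's median was 0.27. With the length trend removed, 5 Paneth cell genes rose, and outside the list the defensin Defa32 rose from 1070 and 1171 TPM to 3349 and 2485 TPM (1.36, adjusted p = 0.0165), a call lost without any 1 library except irradiated replicate 2 (adjusted p = 0.0516 to 0.095). Defensin genes are near copies of each other. Of 20 absorptive enterocyte genes, 19 lay above 0 (median 0.89) and 2 rose (4 after quantile normalization or with the length trend removed, 1 without normal replicate 1 and none without normal replicate 2 or irradiated replicate 2), and the median was 0.52 without normal replicate 2. Apoa1, the apolipoprotein, was at 3388 and 2041 against 9242 and 9802 TPM (1.86, adjusted p = 0.0236), and Slc5a1, the glucose transporter, at 150 and 135 against 350 and 381 TPM (1.36, adjusted p = 0.0349). The Apoa1 call was lost without normal replicate 2 (0.152) or irradiated replicate 2 (0.141), and that of Slc5a1 without normal replicate 1 (0.107), normal replicate 2 (0.139) or irradiated replicate 2 (0.168).

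Among hormone and mucus genes Guca2a, Tac1, Tph1 and Zg16 rose. Guca2a, guanylin, was at 607 and 612 TPM in normal and at 2152 and 2689 TPM in irradiated crypts (1.98, SE 0.19, adjusted p = 6.25e-05). Among 17 enteroendocrine genes (median 0.35) 2 rose in limma, Tac1 (31.4 and 24.7 against 84.4 and 66.1 TPM, adjusted p = 0.00534) and Tph1 (8.01 and 8.77 against 29.1 and 16.1 TPM, adjusted p = 0.0257). These make the peptide substance P and serotonin in enterochromaffin cells. Chga did not pass (81.3 and 145 against 240 and 101 TPM). The enteroendocrine median was -0.01 without irradiated replicate 1 and 0.11 without normal replicate 1. The Tph1 call was lost without either normal library (adjusted p = 0.119 and 0.0817) or irradiated replicate 1 (0.0852). Among 12 goblet cell genes Zg16, a mucus-associated lectin, rose from 3071 and 3032 TPM to 5276 and 7714 TPM (1.06, adjusted p = 0.00399), a change under 2-fold after quantile normalization (0.95) and without irradiated replicate 2 (0.79). With the length trend removed, 4 goblet cell genes rose. The goblet cell median of 0.29 was 0.05 without irradiated replicate 1 and 0.08 without normal replicate 1. It was 0.49 without irradiated replicate 2 and 0.51 without normal replicate 2. Muc2, the main mucin, overlapped between groups (108 and 222 against 341 and 95.6 TPM). None of 9 tuft cell genes passed (limma, median -0.36, 1 at an unadjusted p under 0.05, with 2 lower without irradiated replicate 1), and Dclk1, the best known of them, was under the minimum level. The tuft cell median was -0.95 without irradiated replicate 1 and 0.19 without irradiated replicate 2. Alpi, the enterocyte phosphatase, stood at 161 and 224 against 352 and 170 TPM (adjusted p = 0.6).

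Inflammatory and immediate early genes were mixed. Reg3b and Reg3g, antimicrobial lectins, were among the most abundant messages and did not differ beyond their spread, at 27680 and 10356 against 11869 and 13516 TPM for Reg3b (-0.42, adjusted p = 0.538) and 10550 and 3663 against 4371 and 5156 TPM for Reg3g. Of 7 Reg genes, Reg4 rose (150 and 208 against 462 and 411 TPM, 1.30, adjusted p = 0.0155), without its call when normal replicate 1 (0.122) or irradiated replicate 2 (0.0608) was left out. With the length trend removed, 3 Reg genes rose. Of 22 chemokine and alarmin genes 3 rose, of which Cxcl16 had the largest change (6.43 and 7.51 against 28.1 and 21.0 TPM, 1.67, adjusted p = 0.000258). The others, Icam1 (1.09) and Ccl6 (1.01), lost their calls without normal replicate 2 (adjusted p = 0.108 and 0.0776) or irradiated replicate 2 (0.088 and 0.0824).

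Of 28 interferon-stimulated genes 3 fell and none rose (median -0.04), but without normal replicate 1, 3 rose and none fell (median 0.18), and without irradiated replicate 2, 1 rose and 1 fell (median 0.12). The median was -0.55 without normal replicate 2 and -0.33 without irradiated replicate 1. The 3 that fell were the immunoproteasome subunit Psmb9 (257 and 178 against 79.8 and 90.9 TPM, -1.32, adjusted p = 0.00514), Irf1 (-1.15) and Ifitm3 (-1.01), and after quantile normalization Psmb9 alone passed. Psmb9 lost its call without normal replicate 1 (adjusted p = 0.0553), and Irf1 and Ifitm3 lost theirs without normal replicate 1 (0.17 and 0.122), normal replicate 2 (0.0594 and 0.171) or irradiated replicate 2 (0.235 and 0.256). Of 23 AP-1 and immediate early genes 4 fell and none rose (median -0.97), but 14 fell without irradiated replicate 1 (median -1.63) and none did without irradiated replicate 2 (median -0.29). With quantile normalization, 75th percentile scaling or the length trend removed, 1 member rose and 4 fell. The 4 that fell in the main limma fit were Ier2 (539 and 735 against 310 and 158 TPM, adjusted p = 0.00634), Junb (-1.15), Egr2 (-1.23) and Socs3 (-1.55). Such genes also respond to handling of tissue, and the part of handling in this result was not tested. None of these 4 kept its call without irradiated replicate 2 (adjusted p = 0.057 for Ier2, 0.268 for Junb, 0.277 for Egr2 and 0.289 for Socs3) or without normal replicate 2 (0.0576, 0.159, 0.204 and 0.165), and Ier2 alone kept it without normal replicate 1 (0.0797 for Junb and 0.0533 for Egr2). The clock repressor Nr1d1 fell from 45.2 and 68.3 TPM to 13.6 and 2.76 TPM (-2.94, adjusted p = 0.00929) among 15 clock genes tested. The hour of collection is not given in the sources used here. The Nr1d1 call was lost without normal replicate 2 (0.0708) or irradiated replicate 2 (0.0832). No cholesterol, fatty acid or PPAR alpha gene passed in limma, of 31 and 19 tested, with 4 and 7 at an unadjusted p under 0.05. Of the first list 1 was higher with quantile normalization, 75th percentile scaling or the length trend removed and 1 lower without irradiated replicate 1. Of the PPAR alpha genes 2 were lower with mitochondrial genes kept, 1 was lower without irradiated replicate 2, and 1 was higher and 1 lower without irradiated replicate 1.

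Day 1 was then set beside the later days in the same fit, to place each programme in the course after irradiation. Between day 1 and day 2, 2.3% of genes tested were higher and 2.11% lower on day 1, and between day 1 and day 5, 4.32% and 4.97%. Against day 3, 23.4% were higher and 2.61% lower on day 1. The day 3 libraries lay at -0.96 and -0.87 relative to the mean of crypt libraries among the longest genes, and with the length trends removed 8.74% were higher and 6.42% lower. The same adjustment gave 1.92% higher and 3.5% lower against day 2 and 5.83% higher and 2.43% lower against day 5, so the balance of directions depends on it for each day.

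No change in p53 targets was detected between days 1 and 2. None of the 39 targets passed between these days (limma), and Ccng1 was at 124 and 146 TPM on day 2 and Cdkn1a at 347 and 333 TPM. By day 5, 16 of the 39 were lower than on day 1 (22 with the length trends removed), with Ccng1 at 45.4 and 51.8 TPM (day 1 over day 5, log2 1.70, adjusted p = 0.000242) and Phlda3 at 14.1 and 19.0 TPM (2.18, adjusted p = 3.3e-05). Against day 3, 7 of the 39 were higher and 1 lower on day 1, where 23.4% of all genes tested were higher and 2.61% lower. The lower one was Phlda3, at 167 and 198 TPM on day 3 (day 1 against day 3, -1.22, limma adjusted p = 0.000794). With the length trends removed, 6 of the 39 were higher (15.4%) and 4 lower (10.3%), against 8.74% and 6.42% of all genes.

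Many proliferation genes were lower on day 2 than on day 1. On day 1, 18 of 32 mitosis genes and 15 of 38 S phase genes were higher than on day 2, and none was lower. Ccnb2 was down to 7.91 and 11.1 TPM on day 2 (day 1 over day 2, 1.24, adjusted p = 0.00744), Tk1 to 8.01 and 6.31 TPM and Mki67 to 0.753 and 0.331 TPM. On day 5 the list was above day 1 in 20 of 32 genes, with Top2a at 57.7 and 53.6 TPM. With the length trends removed, 12 mitosis genes and 10 S phase genes were higher on day 1 than on day 2, and 12 mitosis genes were lower than on day 5. Olfm4 followed the same order, at a mean of 13.0 TPM on day 2 and at 184 and 129 TPM on day 5, both different from day 1 (adjusted p = 0.0147 and 0.0241).

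Of 17 revival and fetal-like genes, 9 were lower on day 1 than on day 2, 10 lower than on day 3 and none higher than on either. Of the 60 upregulated genes of the regenerative signature, 7 were lower and none higher on day 1 than on day 2, and 12 were lower and 10 higher than on day 3. With the length trends removed, 11 were lower and none higher against day 2, and 15 were lower (25%) and 3 higher (5%) against day 3. Of all genes tested, 2.61% were lower and 23.4% higher on day 1 than on day 3, or 6.42% and 8.74% with the trends removed. Anxa1 was at 56.2 and 102 TPM on day 2 and 335 and 311 TPM on day 3 (day 1 against day 3, -5.58, adjusted p = 6.63e-07), and Clu at 71.7 and 109 TPM and then 200 and 272 TPM. Ly6a reached 762 and 950 TPM on day 3, and S100a6, already raised on day 1, reached 3523 and 5718 TPM on day 2 and 11786 and 13844 TPM on day 3. Paneth cell genes were higher on day 1 than on day 2 in 10 of 15 and than on day 5 in 12 of 15. Absorptive enterocyte genes were lower on day 1 than on day 2 in 4 of 20 (7 with the length trends removed) and higher than on day 3 in 16 of 20 (15 with the length trends removed). Immunoglobulin genes went on falling to day 5, with 52 of 164 higher on day 1 than on day 5 (31 with the length trends removed) and Igha at 3.17 and 6.95 TPM by then.

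**Figure D5:**
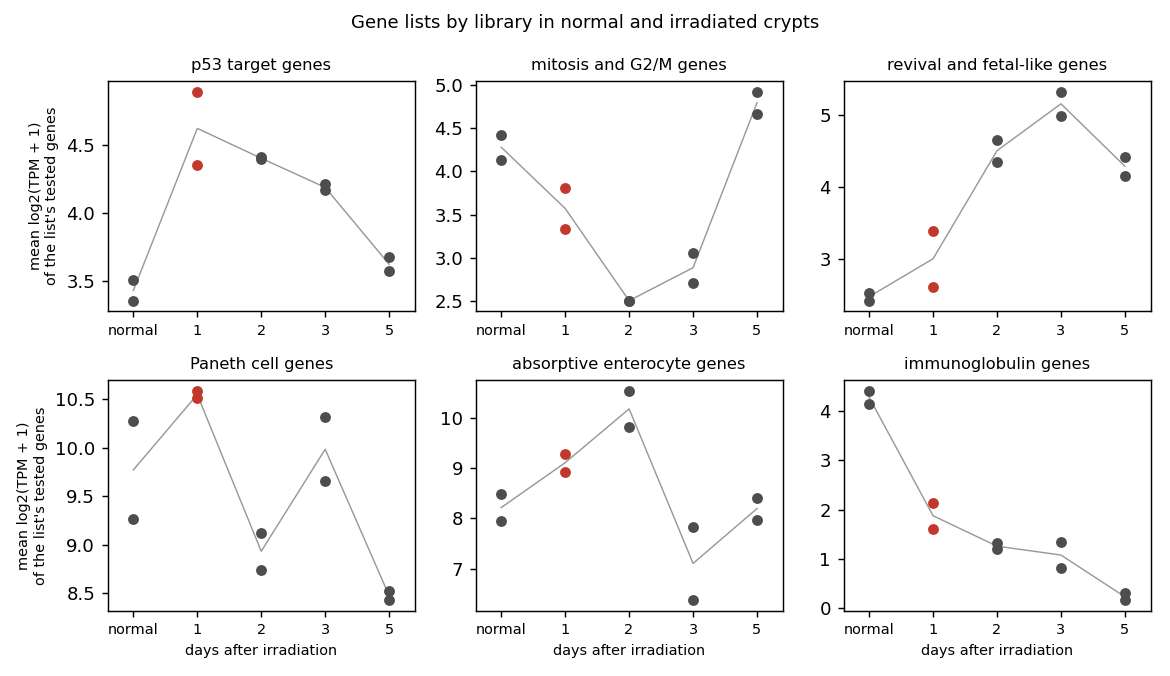
Mean log2(TPM + 1) over the tested genes of 6 lists (vertical) in each of the 2 libraries of normal crypts and of crypts 1, 2, 3 and 5 days after irradiation (horizontal), with day 1 in red and a line through the group means. The group mean of the p53 targets is highest on day 1 (replicate 2 of that day lies beside day 2), mitosis genes lowest on day 2 and revival genes highest on day 3.

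Day 1 crypts of drug-treated mice gave near values for Phlda3, Cdkn1a and Olfm4 and lower ones for Igha. The summed level of immunoglobulin genes was 1688 and 1010 TPM without the drugs and 556 and 614 TPM with them. This sum was not tested. No gene passed between day 1 crypts of irradiated mice with and without VPA and EPZ6438 in limma, and 497 did so at an unadjusted p under 0.05. In the drug-treated libraries Phlda3 stood at 73.2 and 63.6 TPM, Cdkn1a at 361 and 291 TPM, Olfm4 at 59.4 and 39.4 TPM, Igha at 42.7 and 54.5 TPM and Gsdmc4 at 1.96 and 0.0268 TPM. These libraries were compared with the same irradiated libraries and were not set against normal crypts.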

How the data were processed

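Bulk RNA-seq of mouse crypts was analysed. Reads were cleaned by the authors in Trimmomatic 0.39, aligned by STAR 2.7.3a (build mm10) and assigned to genes by featureCounts, and the values were deposited as TPM, so read numbers are not kept. The 4 libraries were taken by their labels. Genes starting mt- were removed and each of 18 crypt libraries was rescaled to 1000000. Values were transformed to log2(TPM + 1), and genes averaging 1 TPM or more in the 4 compared libraries were tested with limma 3.58.1 in R 4.3.3 (lmFit, eBayes with trend and robust), with all 9 crypt groups in 1 fit. Calls needed a Benjamini-Hochberg adjusted p under 0.05 and 2-fold. Fold changes are on the log2(TPM + 1) scale, which understates low genes. Genes were named by rule: the 12 largest rises and falls that did not overlap, reached 5 TPM and held with quantile normalization, up to 4 called members per list, and fixed markers. All other genes named were chosen after their values were seen. The members and lists were chosen with earlier results of these data known. The fit was tested on simulated data. Alternatives were other scalings, pseudocounts, minimum levels, sample sets and a replicate block, each library left out, and, chosen after seeing the data, a crossed block and removal of each library's trend with exon length. Lists got counts and medians, with no test. Promoters and positions are from RefSeq (GRCm38.p6), exon lengths from GENCODE. The result for 1 gene is not reported here.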

Additional observations from a re-analysis of the deposited data

Results flagged for a closer look

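The 13 genes encoded by mitochondrial DNA were outside the comparisons of the report. They took on average 30.7% of the listed TPM in crypts 1 day after irradiation, above both normal libraries (18.1% and 12.7%). The largest share was that of mt-Atp8, at 88148 and 52862 TPM in normal and 175186 and 187817 TPM in irradiated crypts as deposited, while mt-Atp6 was at 9181 and 5892 against 5912 and 4583 TPM. The share was not tested for a cause.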

How the results depend on the processing

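All 441 called genes kept their direction wherever they were still tested. The 217 higher genes became 62 in a fit of the 4 libraries alone, 143 with normal and irradiated groups alone and 364 with the length trend removed, an alternative chosen after seeing the data. The 224 lower genes became 55 and 128 in those 2 smaller fits, 661 with mitochondrial genes kept, 141 with a pseudocount of 0.1 and 146 with a minimum mean of 5 TPM, where fewer genes were tested. Leaving out 1 library gave 158 to 214 higher and 108 to 1100 lower genes. Other settings stayed within 1.5 times. Some genes without a call changed sign. With mitochondrial genes kept these were Pcna (-0.18), Clu (-0.0807), Muc2 (-0.0673) and Pmaip1 (-0.14). With 1 library left out, the ranges were -0.69 to 1.13 for Muc2, -0.70 to 1.04 for Clu, -1.13 to 0.29 for Reg3b, -1.15 to 0.37 for Reg3g, -0.99 to 0.32 for Ascl2, -0.65 to 0.89 for Pmaip1, -0.42 to 0.093 for Trp53, -0.11 to 1.14 for Chga, -0.16 to 0.89 for Alpi, -0.71 to 0.049 for Lgr5 and -0.78 to 0.17 for Btg2. The cause was not tested. Deviations of same-numbered libraries correlated at -0.18 between normal and irradiated crypts and from -0.20 to 0.33 over all pairs of crypt groups (median 0.04), so the numbers were not taken to pair the samples. A replicate block gave 248 higher and 275 lower genes, and the crossed block, added after seeing the data, 227 and 218. The unknown depth limits what low genes can show.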
